A study of Homo sapiens with 12 samples.

Results

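Lovastatin given before CPT-11 was compared with CPT-11 alone in HCT-116, a human colorectal carcinoma cell line, by RNA sequencing. The comparison rests on 6 of the 12 libraries of the series, chosen by their titles. In 3 of them wild-type cells received lovastatin for 4 h and then CPT-11 for 24 h, and in the other 3 wild-type cells received CPT-11 for 24 h. The series also holds 3 libraries of untreated wild-type cells and 3 of cells in which a short hairpin RNA silenced SHP2 and that received CPT-11. Their levels are given for reference, and they entered the shared estimate of spread. The label for treatment on the silenced samples lists lovastatin as well, which their titles do not, and they were placed by title. No library received lovastatin without CPT-11, so the effect of lovastatin here cannot be told apart from an effect that needs both drugs. The sources used here give no drug doses. All libraries come from a single cell line, and no label states that replicates were separate cultures, so every p-value reflects the spread among these libraries and that spread may be technical.

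Lovastatin is a statin, a class of drugs that block the mevalonate pathway. That pathway makes the isoprenoids that are attached to small GTPases and the squalene from which cholesterol is built. When sterols in the endoplasmic reticulum run low, SCAP carries the transcription factor SREBP2 to the Golgi, where it is cleaved, and its active part then enters the nucleus and switches on genes of sterol synthesis and of cholesterol uptake. INSIG proteins hold SCAP back when sterols are plentiful. CPT-11 (irinotecan) is a prodrug that carboxylesterases convert to SN-38, a compound that traps topoisomerase I on DNA and damages replicating DNA.

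Levels are in FPKM, read counts per gene corrected for gene length and library size. The 6 libraries held 15220958 to 16200993 reads assigned to genes. Epithelial markers summed to 971, 1051 and 1133 FPKM with CPT-11 alone and to 1226, 1181 and 1147 FPKM with lovastatin, and markers of fibroblasts, endothelium and blood cells to between 7.31 and 10.1 FPKM in all 6 libraries. The colon markers CDX1, VIL1, LGALS4, CEACAM5, CEACAM6 and GPA33 had too few reads to be tested. CPT-11 replicate 3 stood apart from its group. Across genes its log2 levels correlated at 0.982 and 0.977 with CPT-11 replicates 1 and 2, and at 0.992 to 0.993 with the 3 lovastatin libraries (genes are not independent replicates, and these values are a description). It correlated at 0.990 to 0.991 with the 3 silenced libraries, where CPT-11 replicates 1 and 2 had 0.967 to 0.975. Whether it was exchanged with another library was not tested. The counts of each list below are given with and without it.

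With all libraries, 84 of 18047 genes tested (0.465%) passed the test between the groups at an adjusted p below 0.05 (limma, Benjamini-Hochberg). Of these, 71 (0.393%) were higher with lovastatin and 13 (0.072%) were lower. Genes of sterol and fatty acid synthesis, SREBP control and cholesterol uptake led the rises. Of the 71, 31 belonged to 4 lists of such genes, which held 8, 13, 20 and 18 tested genes. The lists were chosen with earlier results of these data known. Of the 17 genes that rose at least 2-fold on that scale, 16 were in these lists. The falls were smaller than 2-fold in every case, and ORC1 and DTL, which act in DNA replication, were among them. Without CPT-11 replicate 3 the counts were 2872 higher (15.9%) and 2586 lower (14.3%), and all 84 genes kept their call and direction.

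The enzymes that lead from acetyl-CoA to farnesyl diphosphate rose as a group. Of 9 mevalonate pathway genes 8 were tested and 7 were higher, beside 0.393% of all genes. The median log2 difference of the list was 1.20, where the median over all genes tested was 0.0033. HMGCS1, which makes HMG-CoA, gave the largest difference of all genes called (GRCh38 chr5:43289395-43313512, minus strand). Its level was 29.7, 31.2 and 25.2 FPKM with CPT-11 alone and 105, 101 and 103 FPKM with lovastatin before CPT-11. Untreated cells had 28.1, 29.9 and 31.0 FPKM and silenced cells 24.9, 25.5 and 25.8 FPKM. The 3 lovastatin libraries thus stood above all the other 9, which lay close together. The difference was 1.81 ± 0.07 on the log2(FPKM + 1) scale (SE, n = 3 libraries a group, adjusted p = 1.2e-07, limma).

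MVD, which decarboxylates mevalonate diphosphate, was at 13.5, 12.5 and 21.3 FPKM with CPT-11 alone and at 57.0, 49.6 and 44.7 FPKM with lovastatin. Here CPT-11 replicate 3 was the highest of its group and the difference, 1.65 ± 0.16 with it, was 1.87 ± 0.10 without it. FDPS, which makes farnesyl diphosphate, was at 16.9, 18.2 and 19.3 FPKM and at 39.5, 39.8 and 40.5 FPKM in the same order. FDPS also rose by 1.10 ± 0.06 (adjusted p = 3.8e-06, limma), with no overlap. ACAT2 and IDI1 rose by 1.26 and 1.23 on the log2 scale. MVK, the mevalonate kinase, went from 4.05, 3.61 and 4.88 FPKM to 10.9, 10.6 and 10.1 FPKM, with no overlap. The 7 called members had all 3 lovastatin libraries above the other 9, a position held by 421 of all genes tested (2.33%). PMVK, the phosphomevalonate kinase, was the tested member that did not pass, at 15.1, 14.1 and 19.97 FPKM with CPT-11 alone and 24.0, 21.4 and 16.8 FPKM with lovastatin. Its groups overlapped (0.32 ± 0.15, adjusted p = 0.25, limma), and it passed the test without CPT-11 replicate 3 (0.46 ± 0.14, adjusted p = 0.027, limma). That call was lost, at 0.15 with an adjusted p of 0.324, when levels were also corrected for GC content and gene length. IDI2 had 12 reads or fewer in every library and was not tested.

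Of the 13 genes that turn farnesyl diphosphate into squalene and cholesterol, 12 were higher and none was lower, beside 0.393% and 0.072% of all genes. The median log2 difference of the list was 0.90. FDFT1, the squalene synthase, was at 31.8, 31.4 and 30.8 FPKM with CPT-11 alone and at 84.6, 75.4 and 79.4 FPKM with lovastatin. Its difference of 1.32 ± 0.05 had an adjusted p of 1.2e-07 (limma). SQLE, the squalene epoxidase and a control point of the pathway, rose from 23.3, 23.5 and 22.6 FPKM to 39.7, 37.6 and 39.0 FPKM (0.72 ± 0.05). LSS, which closes the ring to lanosterol, was at 9.78, 8.63 and 12.6 FPKM and at 30.1, 28.6 and 28.0 FPKM (1.41 ± 0.10). In all 3 genes the lovastatin libraries were above every other library of the series.

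The enzymes after lanosterol rose by amounts between 0.62 and 1.41 on the log2 scale. MSMO1, a methylsterol oxidase, went from 33.8, 30.2 and 30.5 FPKM to 84.3, 82.5 and 79.7 FPKM (1.36 ± 0.06). DHCR7, which makes cholesterol from 7-dehydrocholesterol, went from 19.4, 20.4 and 24.2 FPKM to 56.5, 55.9 and 54.3 FPKM (1.35 ± 0.07). Neither gene had overlapping groups. CYP51A1, the lanosterol demethylase, was low, at 1.07, 0.875 and 3.32 FPKM with CPT-11 alone and at 7.53, 5.65 and 4.56 FPKM with lovastatin. Its call was the weakest of the list (1.41 ± 0.26, adjusted p = 0.049, limma), and CPT-11 replicate 3 was the library nearest to the lovastatin group. Without that library the difference was 1.79 ± 0.16 (adjusted p = 1.9e-04, limma). TM7SF2, one of a pair of sterol reductases for the same step, rose by 0.95 ± 0.17 (adjusted p = 0.036, limma). LBR, the other of that pair and also a lamin receptor, was the member of the list that did not pass, at 30.8, 29.1 and 28.4 FPKM and at 27.3, 28.7 and 28.6 FPKM (-0.06 ± 0.05, adjusted p = 0.48, limma). NSDHL, EBP, HSD17B7 and SC5D also rose, by 0.90, 0.83, 0.71 and 0.62. In the 12 called members the lovastatin libraries did not overlap with CPT-11 alone, which was so for 1471 higher genes of all tested (8.15%). The counts of the mevalonate and late sterol lists were similar without CPT-11 replicate 3, at 8 of 8 (with PMVK) and 12 of 13 members higher. All genes had 15.9% higher in that fit. With the GC and length correction as well, the counts were 7 of 8 and 12 of 13, beside 7.83% of all genes.

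**Figure D1:**
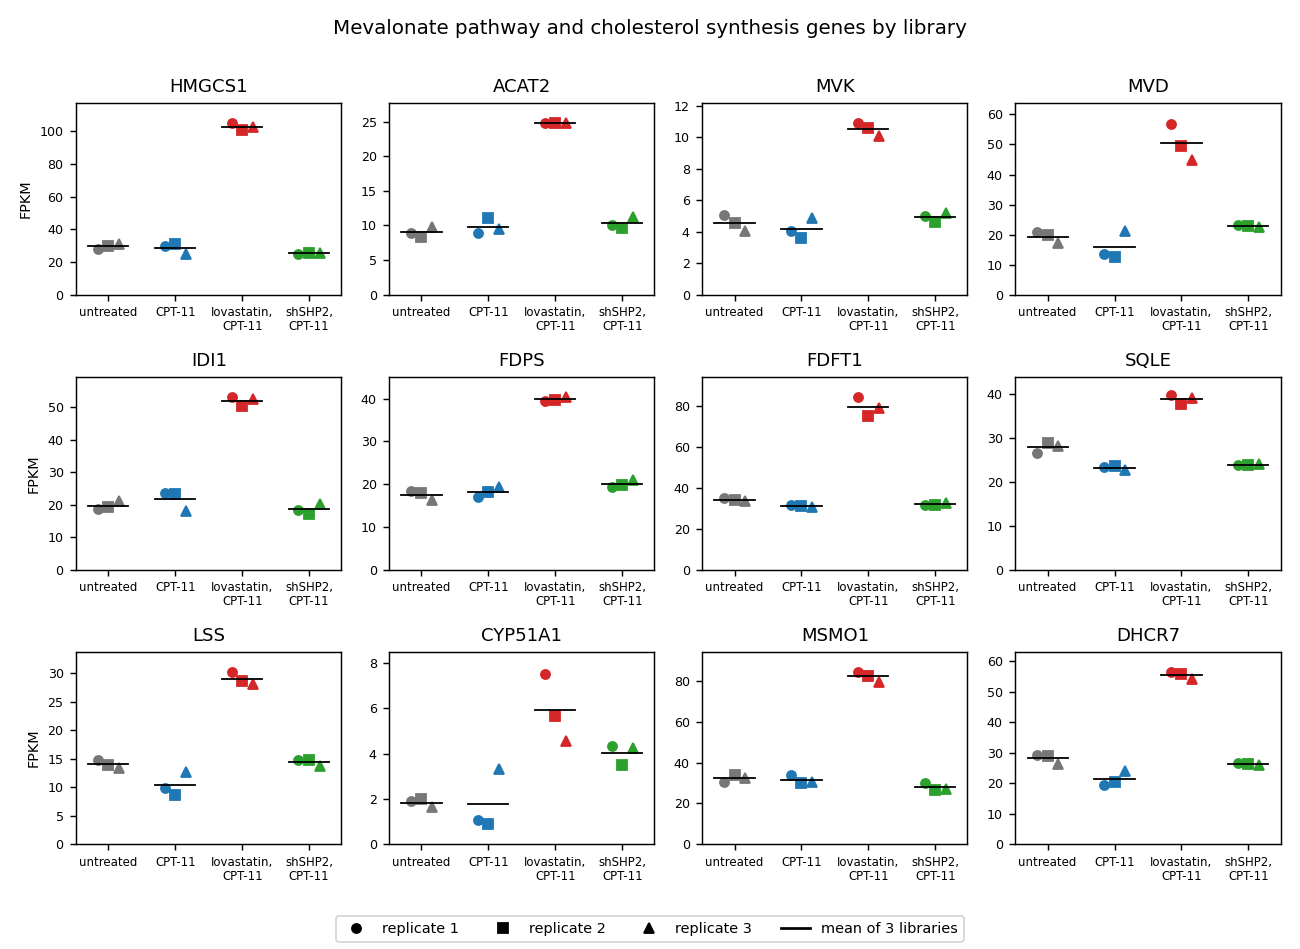
Level in FPKM (y axis) of 12 genes of the mevalonate pathway and cholesterol synthesis in each of the 12 libraries by group, where each point is a library, its shape gives the replicate number and a line marks the mean of 3 libraries. HMGCS1 was at 101 to 105 FPKM with lovastatin and between 24.9 and 31.2 FPKM in the other 9 libraries.

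Promoter sequence around the starts of called genes was searched for short motifs. The 5 stretches printed belong to genes that rose, and each holds a match to CCAAT on either strand. They are the 250 bases before a RefSeq start on GRCh38.p14, read 5' to 3' on the gene's strand, with matches to CCAAT (or its reverse, ATTGG) and to TCACNCCAC in capitals. CCAAT is the core bound by NF-Y, and TCACNCCAC is a form of the sterol regulatory element, to which SREBP binds. HMGCS1 (chr5:43313413-43313662, minus strand, the upstream one of 2 windows listed), MVD (chr16:88663092-88663341, minus) and DHCR7 (chr11:71448394-71448643, minus, also one of 2) are sterol enzymes. The 250 bases of the other window of HMGCS1 and of DHCR7, not printed, hold no match to either motif. SREBF2 (chr22:41832855-41833104, plus) encodes SREBP2, and MVK (chr12:109573544-109573793, plus) shares its upstream stretch with the called neighbour MMAB.
HMGCS1: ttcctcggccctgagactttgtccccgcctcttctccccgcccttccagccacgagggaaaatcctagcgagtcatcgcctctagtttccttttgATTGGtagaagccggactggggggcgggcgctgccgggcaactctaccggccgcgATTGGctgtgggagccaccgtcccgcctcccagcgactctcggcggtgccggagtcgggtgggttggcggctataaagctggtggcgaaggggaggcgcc
MVD: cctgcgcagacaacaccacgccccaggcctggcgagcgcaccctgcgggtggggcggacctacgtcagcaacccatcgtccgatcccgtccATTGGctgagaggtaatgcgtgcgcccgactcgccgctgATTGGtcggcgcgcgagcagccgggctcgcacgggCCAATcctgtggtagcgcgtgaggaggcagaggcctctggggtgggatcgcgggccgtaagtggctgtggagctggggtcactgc
DHCR7: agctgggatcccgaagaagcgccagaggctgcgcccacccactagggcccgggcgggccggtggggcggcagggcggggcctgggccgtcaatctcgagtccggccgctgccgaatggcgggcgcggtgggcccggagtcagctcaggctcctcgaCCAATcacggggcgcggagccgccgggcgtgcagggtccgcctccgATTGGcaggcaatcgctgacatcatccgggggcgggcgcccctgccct
SREBF2: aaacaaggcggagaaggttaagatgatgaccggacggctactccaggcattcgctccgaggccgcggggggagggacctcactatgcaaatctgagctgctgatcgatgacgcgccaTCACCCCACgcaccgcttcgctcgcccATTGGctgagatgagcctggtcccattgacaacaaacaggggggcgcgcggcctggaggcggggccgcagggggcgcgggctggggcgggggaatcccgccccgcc
MVK: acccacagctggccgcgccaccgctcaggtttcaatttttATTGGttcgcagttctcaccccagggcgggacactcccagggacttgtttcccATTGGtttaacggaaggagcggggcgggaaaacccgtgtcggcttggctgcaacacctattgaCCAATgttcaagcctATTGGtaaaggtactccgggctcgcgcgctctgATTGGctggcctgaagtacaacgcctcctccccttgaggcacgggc

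The stretch of SREBF2 holds TCACCCCAC with its first base 133 bases before the start, and a CCAAT match on the other strand begins 106 bases before the start. MVD held 3 CCAAT matches and MVK 5. Over windows of 300 bases, from 250 before to 50 after a start, CCAAT was present on either strand in 13 of 14 called sterol synthesis genes that have a window in the RefSeq table (92.9%). It was present in 7 of 8 called regulators, uptake and fatty acid genes (87.5%), in 14 of 25 other genes that rose (56%) and in 6 of 7 that fell (85.7%). Of the 11339 tested genes with a window 42.7% held it, as did 34.6% of 35116 windows. TCACNCCAC was present in none of the 14 sterol synthesis genes and in 1 of the 8 others (SREBF2). It was in 3 of 25 other risen genes (ALDOC, HYAL1 and IER2), against 1.4% of tested genes with a window and 1.13% of windows. The shorter CACNCCAC was in 2 of the 14, 3 of the 8 and 3 of the 25, against 7.94% of tested genes with a window. The looser TCACNNCAC was in 0, 2 and 4 of these, against 4.22%. A total of 8 motifs was searched and the ones shown were picked after the counts were seen. These matches are descriptions of letters in a window, and a window without a match says only that the letters are not there. SQLE, FDFT1, FASN, ACAT2 and PNPLA3 were not in that table.

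Among 20 genes of SREBP control and cholesterol uptake, 7 were higher and none was lower (median log2 difference 0.33). All genes had 0.393% and 0.072%. Without CPT-11 replicate 3, 13 were higher and 1 lower, beside 15.9% and 14.3% of all genes. INSIG1, which retains SCAP and is itself a target of SREBP, went from 13.1, 12.7 and 11.9 FPKM to 44.9, 44.5 and 44.1 FPKM. Untreated cells had 15.6, 16.7 and 17.2 FPKM, so its lovastatin level was above every other library and its level with CPT-11 alone was below the untreated one. The difference between lovastatin and CPT-11 alone was 1.75 ± 0.06 (adjusted p = 1.2e-07, limma). STARD4, a carrier of cholesterol between membranes, rose by 0.92 ± 0.07, LPIN1 by 0.74 ± 0.07 and TMEM97 by 0.62 ± 0.06.

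SREBF2 and SREBF1 encode the SREBP transcription factors. SREBF2 was at 30.9, 28.4 and 36.5 FPKM with CPT-11 alone, 45.8, 46.3 and 43.9 FPKM with lovastatin and 40.6, 37.6 and 36.6 FPKM in untreated cells (0.50 ± 0.08, adjusted p = 0.017, limma). SREBF1, whose product favours fatty acid genes, was at 15.8, 14.1 and 20.3 FPKM, 24.4, 23.6 and 23.2 FPKM, and 28.4, 25.9 and 25.5 FPKM in that order. The lovastatin libraries were above the CPT-11 libraries for both genes, and for SREBF1 they were below the untreated ones. SREBF1 did not pass the test with all libraries (0.49 ± 0.10, adjusted p = 0.076, limma) and passed it without CPT-11 replicate 3 (0.63 ± 0.07, adjusted p = 6.3e-04, limma). SREBF1 passed in both cases with a smaller difference, 0.27, after the GC and length correction (adjusted p = 0.00686 with all libraries, limma).

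Of 18 fatty acid genes, 5 were higher and none was lower (median 0.26), beside 0.393% and 0.072% of all genes. Without CPT-11 replicate 3, 11 were higher and 1 lower, beside 15.9% and 14.3%. SCD, which desaturates stearate, was at 141, 145 and 139 FPKM with CPT-11 alone, 319, 325 and 339 FPKM with lovastatin and 208, 203 and 209 FPKM in untreated cells. The 3 groups did not overlap, with CPT-11 alone lowest and lovastatin highest, and the difference between these was 1.20 ± 0.05 (adjusted p = 1.2e-07, limma). ACSS2, which makes acetyl-CoA from acetate, went from 13.0, 13.7 and 11.8 FPKM to 29.9, 30.7 and 31.0 FPKM (1.19 ± 0.07). FASN, the fatty acid synthase, went from 130, 128 and 170 FPKM to 250, 264 and 247 FPKM (0.84 ± 0.10). ACLY, which makes cytosolic acetyl-CoA from citrate, went from 73.0, 75.6 and 77.2 FPKM to 109, 109 and 110 FPKM (0.54 ± 0.04). None of these 4 genes had overlapping groups. PNPLA3, a lipase-like protein of lipid droplets, rose by 0.83 ± 0.10. Of 10 tested LXR and efflux genes none passed. Without CPT-11 replicate 3, 1 of the 10 was higher and 1 lower, beside 15.9% and 14.3% of all genes. ABCA1, the cholesterol exporter, was at 1.58, 1.58 and 1.51 FPKM with CPT-11 alone and at 0.852, 1.28 and 0.879 FPKM with lovastatin. All 3 lovastatin values lay below those of CPT-11 alone (-0.36 ± 0.09, adjusted p = 0.13, limma), and above the untreated 0.457, 0.233 and 0.328 FPKM.

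**Figure D2:**
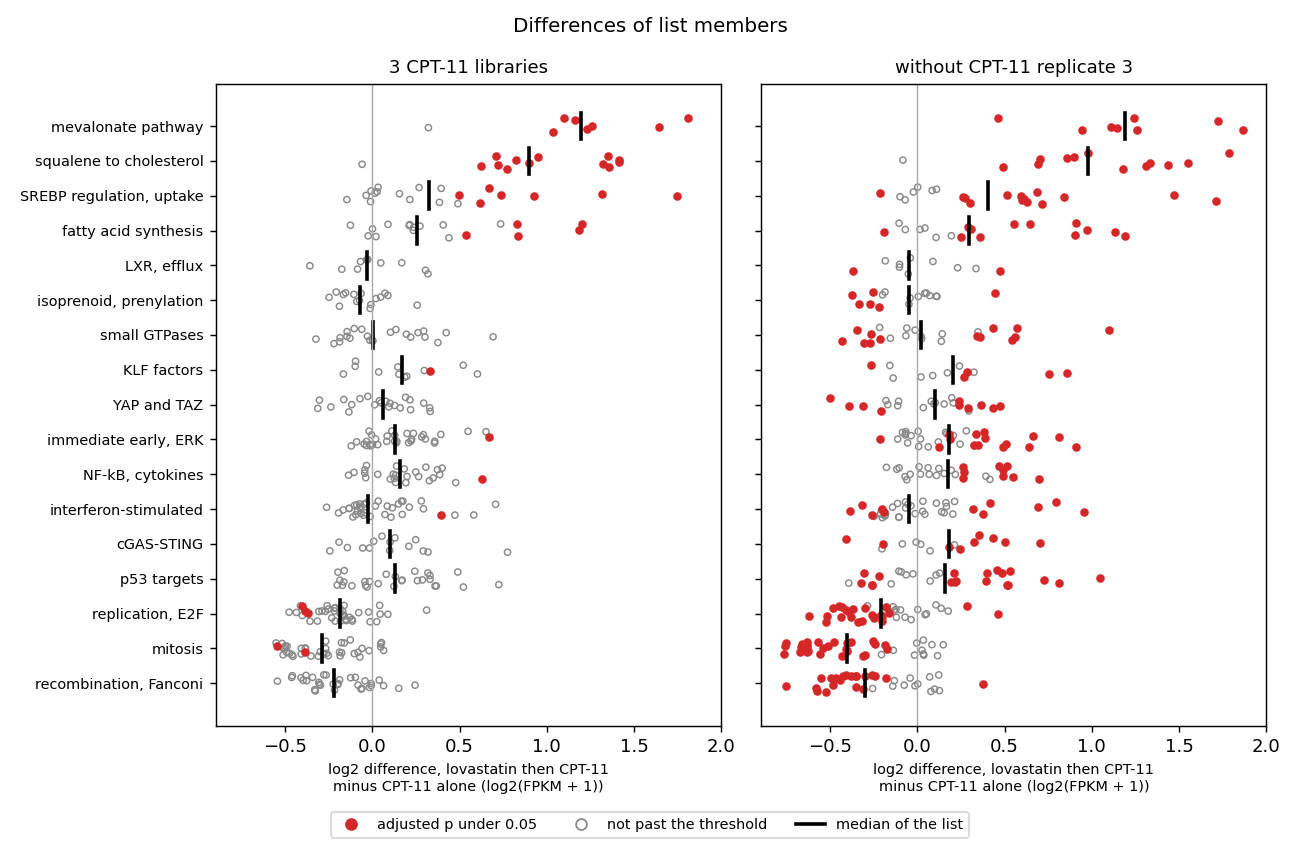
Log2 difference of lovastatin before CPT-11 minus CPT-11 alone (x axis, log2(FPKM + 1) scale) for members of 17 gene lists (rows), with all libraries on the left and without CPT-11 replicate 3 on the right, each point a gene, filled where it passed the test, and a line for the median. On the left the mevalonate and late sterol lists lie at medians of 1.20 and 0.90, and the replication and mitosis lists at -0.18 and -0.29.

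Several risen genes outside the lists lie beside sterol genes or work near them, and they were chosen after their values were seen. ERG28, a tether of sterol enzymes in the endoplasmic reticulum, went from 16.5, 16.2 and 14.1 FPKM to 29.8, 27.3 and 30.0 FPKM (0.86 ± 0.08). LIPG, an endothelial lipase that acts on lipoproteins, went from 0.650, 0.553 and 0.797 FPKM to 2.16, 2.10 and 2.09 FPKM (0.91 ± 0.08). Neither gene had overlapping groups. MMAB, a cobalamin enzyme, starts beside MVK on the opposite strand of chromosome 12, and its stretch of 250 bases shares 211 with that of MVK. MMAB rose by 0.58 ± 0.09 and its annotated span overlaps that of MVK by 620 bases. RUSC1-AS1 overlaps FDPS by 3804 bases on the opposite strand and rose by 0.90 ± 0.09. C6orf223 and AL109615.3 lie beside each other on chromosome 6 and not beside a called sterol gene. They overlap by 5379 bases and rose by 1.10 and 0.94. No source used here states whether counting used strand, and reads in overlapping stretches cannot be told apart. HSD17B7P2, a pseudogene copy of HSD17B7, rose by 0.60 ± 0.08, and reads of the 2 copies may be split between them.

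Other genes that rose came from several processes. HMOX1, the heme oxygenase, went from 13.4, 15.5 and 18.1 FPKM to 23.8, 23.0 and 22.2 FPKM (0.53 ± 0.10, adjusted p = 0.045, limma). ALDOC, an aldolase of glycolysis, went from 12, 11.4 and 12.6 FPKM to 24.8, 22.8 and 26.1 FPKM (0.97 ± 0.13). MICA, a ligand of the NK cell receptor NKG2D and also chosen after its values were seen, went from 19.2, 19.7 and 20.7 FPKM to 28.5, 28.9 and 29.9 FPKM (0.53 ± 0.06). In all 3 genes the lovastatin libraries were above every other library. In the list of 30 stress response genes, PPP1R15A (0.44) and ATF3 (0.31) passed, beside 0.393% of all genes higher. Both are genes of the integrated stress response. Of the 30, 11 were higher and 1 lower without CPT-11 replicate 3, beside 15.9% and 14.3% of all genes, and the counts were the same with the GC and length correction as well (7.83% and 7.75% of all genes). Of 26 iron and redox genes HMOX1 passed, and of 22 glucose genes ALDOC passed, beside 0.393% of all genes higher. Without CPT-11 replicate 3, 5 were higher and 1 lower in the iron and redox list. In the glucose list 8 were higher and 1 lower, beside the same 15.9% and 14.3% of all genes.

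**Figure D3:**
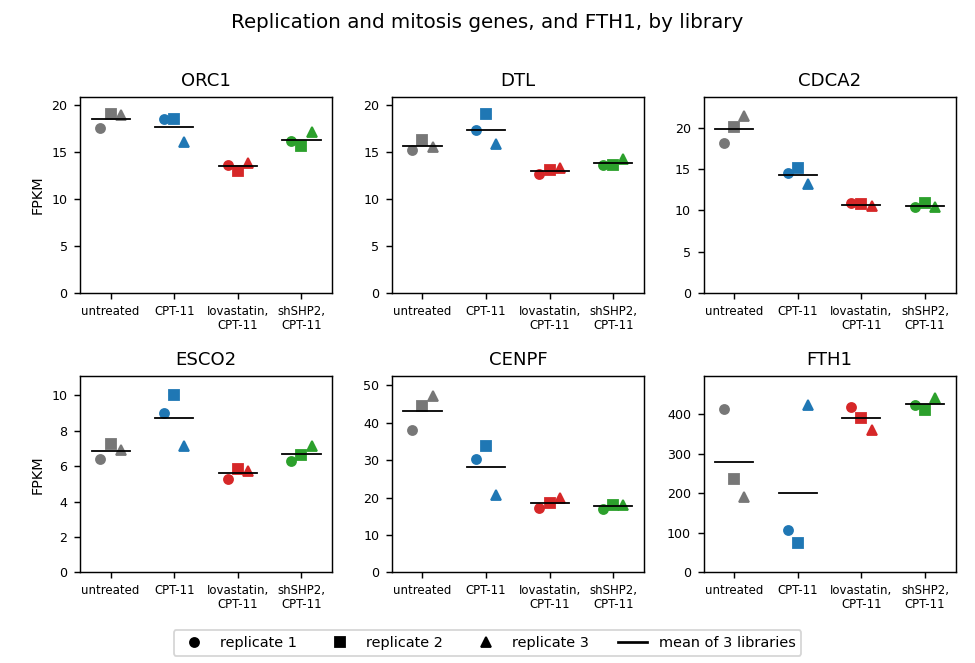
Level in FPKM (y axis, from 0) of 4 called genes (ORC1, DTL, ESCO2 and CDCA2), of CENPF and of FTH1 in each library by group, with shapes for the replicate number and a line for the mean of 3 libraries. ORC1 was at 13.0 to 13.8 FPKM with lovastatin and at 15.6 FPKM or more elsewhere, and CPT-11 replicate 3 is apart from replicates 1 and 2 for CENPF and FTH1.

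Of 40 DNA replication genes, 3 were lower and none was higher (median log2 difference -0.18), beside 0.072% and 0.393% of all genes. ORC1, the largest subunit of the origin recognition complex, was at 18.5, 18.5 and 16.1 FPKM with CPT-11 alone and at 13.7, 13.0 and 13.8 FPKM with lovastatin. Its untreated level was 17.6, 19.0 and 19.0 FPKM, and its level in silenced cells 16.1, 15.6 and 17.1 FPKM. The 3 lovastatin libraries were the lowest of all 12 (-0.37 ± 0.06, adjusted p = 0.036, limma). DTL, which directs the degradation of the licensing factor CDT1, was at 17.3, 19.0 and 15.8 FPKM and at 12.7, 13.1 and 13.3 FPKM (-0.39 ± 0.06, adjusted p = 0.024, limma). For DTL too the lovastatin libraries were the lowest of the series. MCM4, a subunit of the replicative helicase, did not pass (-0.32 ± 0.06, adjusted p = 0.056, limma), at 47.6, 49.8 and 43.3 FPKM with CPT-11 alone and 37.0, 37.0 and 38.4 FPKM with lovastatin.

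In 26 of the 40 replication genes the lovastatin libraries were below all 3 of CPT-11 alone without overlap, as in 1607 of all genes tested (8.9%). In 19 of the 40 genes all 3 lovastatin libraries lay below the other 9, a position held by 340 of all genes tested (1.88%), and no replication gene lay above them. Relative to untreated cells, the median of the list was -0.08, -0.02 and -0.07 in the CPT-11 libraries and -0.21, -0.24 and -0.25 in the lovastatin libraries. In silenced cells it was -0.18, -0.12 and -0.06. Without CPT-11 replicate 3, 22 members were lower and 2 higher, beside 14.3% and 15.9% of all genes. When the log2 levels were corrected for the GC content and length of each gene, 21 of 40 were lower and none higher with all libraries, beside 181 lower (1%) and 167 higher (0.925%) of all genes. With that correction and without CPT-11 replicate 3, 25 were lower and none higher, beside 1398 lower (7.75%) and 1413 higher (7.83%).

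The count of mitosis genes called moved with CPT-11 replicate 3. Of 40, 2 were lower and none was higher with all libraries (median -0.29), beside 0.072% and 0.393% of all genes. The counts were 28 lower and none higher without CPT-11 replicate 3, beside 14.3% and 15.9% of all genes. ESCO2, which acetylates cohesin in S phase, was at 8.98, 10.04 and 7.16 FPKM with CPT-11 alone and at 5.29, 5.85 and 5.72 FPKM with lovastatin (-0.55 ± 0.10, adjusted p = 0.046, limma). CDCA2, a mitotic partner of protein phosphatase 1, was at 14.5, 15.1 and 13.2 FPKM and at 10.9, 10.7 and 10.5 FPKM (-0.38 ± 0.07, adjusted p = 0.035, limma). Neither gene had overlapping groups. CENPF, a kinetochore protein, did not pass with all libraries, at 30.2, 33.6 and 20.7 FPKM with CPT-11 alone and at 17.2, 18.6 and 19.9 FPKM with lovastatin. CPT-11 replicate 3 was close to the lovastatin libraries, and CENPF passed the test without it (-0.75 ± 0.09, adjusted p = 7.9e-04, limma) and not with it (-0.55 ± 0.14, adjusted p = 0.13, limma). It also passed with all libraries after the GC and length correction (-0.39, adjusted p = 0.0352, limma). Relative to untreated cells the median of the list was -0.27, -0.25 and -0.59 in the CPT-11 libraries, -0.69, -0.71 and -0.64 in the lovastatin libraries and -0.66, -0.66 and -0.60 in silenced cells. Lovastatin libraries lay below the other 9 in 5 of the 40 genes (1.88% of all genes). With the GC and length correction 15 were lower with all libraries (1% of all genes) and 28 without CPT-11 replicate 3 (7.75%), and none was higher in either.

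Among genes of DNA repair, 1 passed with all libraries. PRKDC, the kinase of non-homologous end joining, was at 57.9, 60.8 and 50.4 FPKM with CPT-11 alone and at 38.6, 42.4 and 44.1 FPKM with lovastatin (-0.42 ± 0.08, adjusted p = 0.043, limma). It was the 1 member lower of 20 end-joining and PARP genes with all libraries, beside 0.072% of all genes. Without CPT-11 replicate 3, 10 of the 20 were lower and 1 higher, beside 14.3% and 15.9% of all genes, and with the GC and length correction as well 5 were lower and none higher, beside 7.75% and 7.83%. With that correction and all libraries, 3 were lower and none higher, beside 1% and 0.925%. Of 33 tested homologous recombination and Fanconi genes none passed (median -0.22), and without CPT-11 replicate 3, 20 were lower and 1 higher (14.3% and 15.9% of all genes). With the GC and length correction as well, 13 of the 33 were lower and 1 higher (7.75% and 7.83%). With that correction and all libraries, 7 of the 33 were lower and none higher (1% and 0.925%). BRIP1, a helicase that binds BRCA1, was at 9.93, 9.15 and 7.19 FPKM and at 5.89, 6.0 and 6.26 FPKM, below every other library (-0.46 ± 0.09, adjusted p = 0.071, limma). RBBP8, which starts end resection, was at 23.7, 24.4 and 15.3 FPKM and at 13.6, 13.98 and 14.03 FPKM. Silenced cells were lower still for RBBP8, at 10.9, 10.8 and 11.5 FPKM. After the GC and length correction with all libraries, BRIP1 passed (-0.30, adjusted p = 0.0326, limma), as did RBBP8 (-0.41, adjusted p = 0.0333, limma). PKP4, a plakophilin of cell junctions, was another of the 13 falls, at 9.54, 10.7 and 8.51 FPKM and at 6.92, 6.86 and 7.03 FPKM (-0.41 ± 0.08). Other falls were OR51B4, FAM81A, TUBA4A, NCAPD3, ZNF367 and the pseudogene PDCL3P4.

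TOP1, the target of the active form of CPT-11, was at 105, 112 and 84.5 FPKM with CPT-11 alone and at 76.6, 80.0 and 83.1 FPKM with lovastatin. All lovastatin values were below those of CPT-11 alone, by a narrow margin for replicate 3. TOP1 did not pass with all libraries (-0.32 ± 0.09, adjusted p = 0.15, limma) and passed without CPT-11 replicate 3 (-0.44 ± 0.05, adjusted p = 8.9e-04, limma). The difference of TOP1 was -0.26 with the GC and length correction as well (adjusted p = 0.00349, limma). It was -0.21 with that correction and all libraries and did not pass (adjusted p = 0.0583, limma). CES2, the carboxylesterase that activates CPT-11, was at 15.8, 15.9 and 17.4 FPKM and at 17.6, 17.3 and 16.3 FPKM, with overlapping groups (0.06, adjusted p = 0.58, limma).

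**Figure D4:**
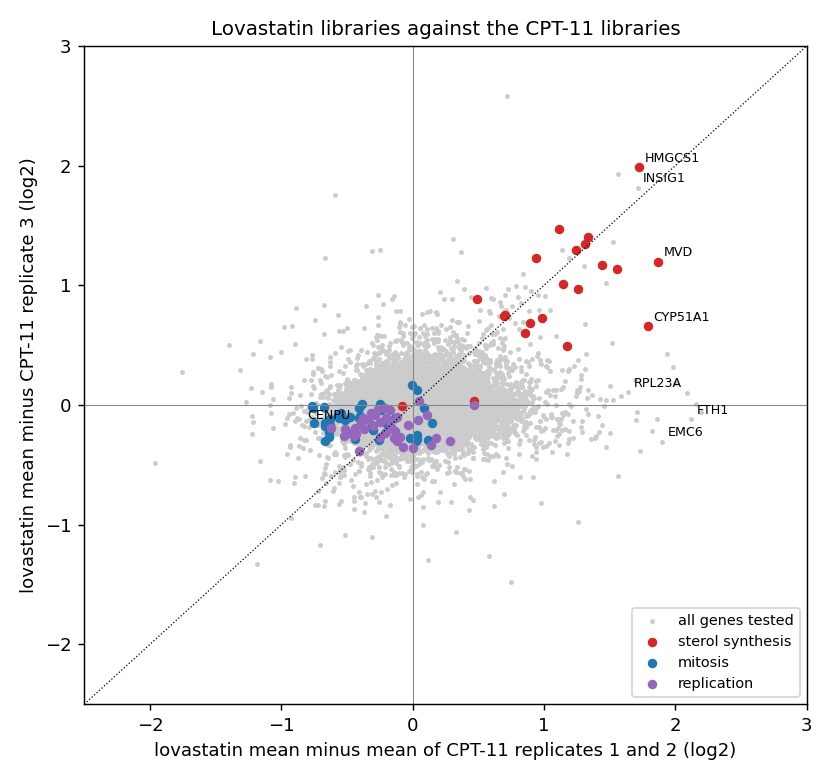
Log2 difference of the mean of the lovastatin libraries from the mean of CPT-11 replicates 1 and 2 (x axis) against that from CPT-11 replicate 3 (y axis), each point a gene on the log2(FPKM + 1) scale, in grey or coloured for sterol synthesis, mitosis and replication genes, with a dotted line where both are equal. HMGCS1 lies near that line and FTH1 near 0 on the y axis, and 2 genes (RN7SL2 and MT-TY) lie outside the axes.

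CPT-11 replicate 3 was nearer to the lovastatin mean than to the mean of CPT-11 replicates 1 and 2 in 73.4% of all genes tested. Leaving it out added 2801 genes that were higher and 2573 that were lower with lovastatin. These genes are selected for where replicate 3 lies, so its level in them is no separate result. The added genes had a median GC content of 60.3% where higher and of 42.0% where lower, while all tested genes had 49.5% and the 71 rises 53.4%. Whether GC content or gene length accounts for these calls was not tested.

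FTH1, the heavy chain of the iron store ferritin, gave the largest rise without CPT-11 replicate 3 among protein-coding genes of at least 1 FPKM. It was at 106, 73.9 and 422 FPKM with CPT-11 alone and at 419, 391 and 360 FPKM with lovastatin, with replicate 3 above all lovastatin libraries. Untreated libraries were also spread, at 413, 235 and 191 FPKM. The difference was 1.38 ± 0.50 with all libraries (adjusted p = 0.19, limma) and 2.12 ± 0.26 without CPT-11 replicate 3 (adjusted p = 8.6e-04, limma). RN7SL2, an RNA of the signal recognition particle that is not a messenger RNA, followed the same order, at 37.2, 17.6 and 400 FPKM and at 346, 324 and 227 FPKM. LGALS7B, EMC6, RAB5IF and RPL23A likewise had replicate 3 close to the lovastatin level. RPL23A, a protein of the large ribosomal subunit, was at 42.8, 29.8 and 105 FPKM and at 114, 117 and 110 FPKM. Both FTH1 and RPL23A have many pseudogene copies, so their reads may be shared with these.

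**Figure D5:**
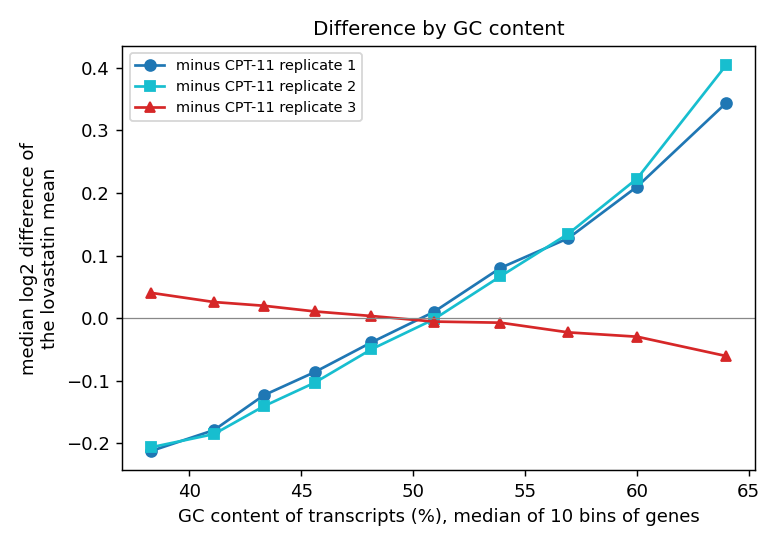
Median log2 difference of the lovastatin mean from each CPT-11 library (y axis) in 10 equal bins of the tested genes by transcript GC content (x axis, percent), 1 line per CPT-11 replicate. From the lowest to the highest bin the difference goes from -0.21 to 0.34 for replicate 1 and from -0.21 to 0.40 for replicate 2, and from 0.04 to -0.06 for replicate 3.

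The dependence on GC content was graded. In the bin of genes with the lowest GC content (median 38.3%) the lovastatin mean was -0.21 from both CPT-11 replicates 1 and 2 and 0.04 from replicate 3. In the bin with the highest (64.0%) the differences were 0.34, 0.40 and -0.06. With the GC and length correction and all libraries, 7 of 8 mevalonate genes and 12 of 13 late sterol genes were higher. So were 10 of 20 SREBP and uptake genes and 10 of 18 fatty acid genes, beside 0.925% of all genes.

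Genes of prenylation and of prenylated proteins had no call with all libraries. None of 16 genes for prenyl transfer and isoprenoid branches passed, and 1 was higher and 5 lower without CPT-11 replicate 3. None of 23 small GTPases passed, and 7 were higher and 6 lower without it, beside 15.9% higher and 14.3% lower of all genes. With the GC and length correction as well, the counts were 1 and 0 for the first list and 1 and 3 for the GTPases, beside 7.83% and 7.75%. RHOB, a GTPase whose RNA is known to rise with statins in several cell types, was at 91.8, 95.5 and 114 FPKM with CPT-11 alone and at 126, 122 and 112 FPKM with lovastatin. Its groups overlapped (0.26 ± 0.09, adjusted p = 0.18, limma). In a fit to the 6 libraries alone that left out CPT-11 replicate 3, RHOB passed (0.36, adjusted p = 0.012, limma). RHOB did not pass after levels were corrected for GC content and length, that library again left out (0.14, adjusted p = 0.0535, limma). KLF2, another gene known to rise with statins in endothelium, was at 17.8, 17.6 and 29.4 FPKM and at 31.9, 31.4 and 28.3 FPKM. Its groups overlapped through CPT-11 replicate 3 (0.52 ± 0.18, adjusted p = 0.18, limma). KLF2 passed in the fit to the 6 libraries alone that left out this replicate (0.76, adjusted p = 0.0039, limma). It also passed, at a smaller difference, after levels were corrected for GC content and length, this replicate again left out (0.24, adjusted p = 0.0245, limma). With all libraries the corrected difference of KLF2, 0.21, did not pass (adjusted p = 0.0947, limma). KLF6 was the 1 member of 12 KLF genes that passed with all libraries (0.33 ± 0.06, adjusted p = 0.049, limma), beside 0.393% of all genes higher. Its level was 21.8, 22.6 and 20.3 FPKM with CPT-11 alone and 26.0, 26.9 and 29.2 FPKM with lovastatin. Of the 12, 4 were higher and 1 lower without CPT-11 replicate 3, beside 15.9% and 14.3% of all genes. These counts were 5 and 0 with the GC and length correction as well, beside 7.83% and 7.75%. Of 22 YAP and TEAD genes and targets and of 20 SRF and actin genes none passed with all libraries. In each list 6 were higher and 4 lower without CPT-11 replicate 3, beside 15.9% and 14.3% of all genes. With the GC and length correction as well, 3 were higher and 6 lower in the YAP list. In the SRF list 1 was higher and 6 lower with it, where all genes had 7.83% and 7.75%. CTGF, a YAP target, was at 2.80, 3.30 and 3.31 FPKM with CPT-11 alone and at 4.55, 4.46 and 3.62 FPKM with lovastatin. Its values were higher with lovastatin, without passing the test (0.33 ± 0.10, adjusted p = 0.16, limma).

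The title of the series names the cGAS-STING pathway, in which the sensor cGAS answers to cytosolic DNA and STING (TMEM173) passes the signal on to TBK1 and IRF3. Of 15 tested members none passed with all libraries. Without CPT-11 replicate 3, 7 were higher and 2 lower, beside 15.9% and 14.3% of all genes, and with the GC and length correction as well none was higher and 1 was lower, beside 7.83% and 7.75%. TMEM173 was at 8.69, 7.60 and 10.4 FPKM with CPT-11 alone and at 11.2, 10.8 and 10.1 FPKM with lovastatin, and 4.50, 4.16 and 4.05 FPKM in untreated cells. The lovastatin and CPT-11 groups overlapped (0.25 ± 0.09, adjusted p = 0.2, limma), and TMEM173 passed without CPT-11 replicate 3 (0.36 ± 0.07, adjusted p = 0.0047, limma). It did not pass with the GC and length correction as well (0.13, adjusted p = 0.117, limma). CGAS had 0 to 5 reads and IFNB1 0 to 9 reads in every library, and neither was tested. IFNL1, a type III interferon, was at 1.87, 2.74 and 1.83 FPKM and at 4.86, 3.63 and 4.64 FPKM, above every other library without passing (0.78 ± 0.17, adjusted p = 0.081, limma). Of 36 tested interferon-stimulated genes, 1 passed, beside 0.393% of all genes higher. The counts were 6 higher and 5 lower without CPT-11 replicate 3, beside 15.9% and 14.3% of all genes. They were 6 and 1 with the GC and length correction as well, beside 7.83% and 7.75%. All 3 lovastatin libraries lay above the other 9 in 5 of the 36 genes and below them in none, beside 2.33% and 1.88% of all genes. The gene that passed, OASL, an OAS family member without synthetase activity, was at 17.9, 17.1 and 18.4 FPKM and at 24.7, 23.6 and 23.0 FPKM (0.40 ± 0.06, adjusted p = 0.013, limma). CXCL3, a neutrophil chemokine, was the 1 of 26 NF-kB genes that passed, beside 0.393% of all genes higher. Its level was 0.278, 0.265 and 0.463 FPKM with CPT-11 alone and 1.21, 0.952 and 1.02 FPKM with lovastatin (0.63 ± 0.09, adjusted p = 0.011, limma). Without CPT-11 replicate 3, 9 of the 26 were higher and none lower, beside 15.9% and 14.3% of all genes. With the GC and length correction as well, 4 were higher and 1 lower, beside 7.83% and 7.75%. The counts with that correction and all libraries were 3 higher and none lower, beside 0.925% and 1%. The lovastatin libraries lay above the other 9 in 7 of the 26 genes and below them in none, beside 2.33% and 1.88% of all genes.

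None of 28 p53 targets passed with all libraries, and 14 were higher and 5 lower without CPT-11 replicate 3, beside 15.9% and 14.3% of all genes. With the GC and length correction as well, 13 were higher and none lower, beside 7.83% and 7.75%. With that correction and all libraries, 3 were higher and none lower, beside 0.925% and 1%. In 5 of the 28 genes the lovastatin libraries lay above the other 9 and in none below them, beside 2.33% and 1.88% of all genes. CDKN1A, the p21 inhibitor of cyclin-dependent kinases, was at 495, 483 and 592 FPKM with CPT-11 alone and at 704, 679 and 636 FPKM with lovastatin. Untreated cells had 157, 154 and 142 FPKM. The lovastatin libraries were the highest of the series (0.37 ± 0.08, adjusted p = 0.097, limma), and CDKN1A passed without CPT-11 replicate 3 (0.46 ± 0.06, adjusted p = 0.0013, limma). CDKN1A passed with all libraries at a smaller difference after the GC and length correction (0.22, adjusted p = 0.0315, limma). IER2, an immediate early gene, was the 1 of 33 ERK and early response genes that passed, beside 0.393% of all genes higher. Its level was 12.4, 11.8 and 16.6 FPKM with CPT-11 alone and 23.2, 21.8 and 20.8 FPKM with lovastatin (0.67 ± 0.12, adjusted p = 0.045, limma). Of the 33, 14 were higher and 1 lower without CPT-11 replicate 3, beside 15.9% and 14.3% of all genes. With the GC and length correction as well, 7 were higher and 2 lower, beside 7.83% and 7.75%. Of 10 tested histone genes HIST1H2AC passed (0.57 ± 0.10), beside 0.393% of all genes higher. Without CPT-11 replicate 3, 6 of the 10 were higher and 1 lower, beside 15.9% and 14.3% of all genes. These counts were 2 and 1 with the GC and length correction as well, beside 7.83% and 7.75%. They were 1 and 1 with that correction and all libraries, beside 0.925% and 1%. The lovastatin libraries lay above the other 9 in 4 of the 10 and below them in 1, at -0.86, beside 2.33% and 1.88% of all genes.

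A fit to the 6 libraries alone called 36 genes higher (0.199%) and none (0%) lower at an adjusted p below 0.05 by limma, where 2100 genes had an unadjusted p below 0.05. Leaving out CPT-11 replicate 1 gave 43 higher and 0 lower, replicate 2 gave 43 and 4, and lovastatin replicates 1, 2 and 3 gave 41 and 0, 46 and 0, and 45 and 2. The mevalonate list kept 7 higher members in each of these 5 fits and the late sterol list 9, without CYP51A1, TM7SF2 and SC5D. At most 1 of the 13 falls was still called in any of these 5 fits, while all 13 were called without CPT-11 replicate 3.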

How the data were processed

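The deposited table gives FPKM for 59172 features, made by the authors from read counts. DESeq2 1.16.1, featureCounts 1.5.0-p3, HISAT2 2.0.5 and StringTie 1.3.3b are named per the submitters' processing notes, as is the build hg19. All 58735 features with an Ensembl identifier carry GENCODE 29 coordinates, which are on GRCh38. Each nonzero FPKM times gene length is a whole number of reads within 0.01, and the 12 libraries hold 14447847 to 16224271 reads. The deposited scaling makes changes relative to the typical gene.

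Tested genes (18047) had 10 or more reads (at the depth of the median library) in 3 libraries and 15 in total. The test was limma 3.58.1 (R 4.3.3) on log2(FPKM + 1), with a variance trend, 4 group means over 12 libraries and Benjamini-Hochberg adjustment at 0.05. Differences on this scale understate the changes of low genes. The gene lists and the naming rule were chosen with earlier results of these data known. The rule names the 10 largest rises and falls with and without CPT-11 replicate 3 (protein-coding, mean of at least 1 FPKM, no overlap), called members of the 4 sterol and fatty acid lists, up to 4 members per remaining list ranked by p, and a fixed set; some of these genes are not reported here. HSD17B7P2, ERG28, LIPG, MICA, MMAB, RUSC1-AS1, C6orf223, AL109615.3, LBR, PMVK, IFNB1, CGAS, IDI2, PDCL3P4 and the genes named for a motif were named after their values were seen. Promoter windows are from RefSeq. The deviations of same-numbered libraries from their group means correlated at -0.19, -0.07 and -0.28. These values cannot decide whether replicate numbers pair libraries, because CPT-11 replicate 3 stands apart and moves the mean of its group. Alternatives covered the pseudocount, filters, scaling, voom on recovered reads, library weights, a replicate block, the libraries in the fit and a correction for GC content and length. That correction without CPT-11 replicate 3 was added after the data were seen.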

Additional observations from a re-analysis of the deposited data

How the results depend on the processing

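With all libraries 71 genes were higher and 13 lower. Higher and lower calls were 167 and 181 with the GC and length correction, 1413 and 1398 with it and without CPT-11 replicate 3, 4394 and 4160 with array weights per library (the weight of CPT-11 replicate 3 was 0.144 and that of replicate 1 was 5.25), and 2546 and 2193 with only the 6 libraries and without CPT-11 replicate 3. They were 36 and 0 with only the 6 libraries, 64 and 5 with no filter on low values, 64 and 10 with a filter of 1 FPKM, 67 and 11 with a pseudocount of 0.1 FPKM, 76 and 19 with scaling to assigned reads, and 101 and 40 with voom. Leaving out 1 library gave 41 to 2872 higher and 0 to 2586 lower, the top of each range being without CPT-11 replicate 3. Of the 84 calls, 84 were still called with array weights, 80 with voom, 78 with the GC and length correction, 54 with no filter and 35 with only the 6 libraries.

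The replicate block gave 46 higher and 0 lower, with 3031 genes at an unadjusted p below 0.05 by limma, and 100 and 68 together with the GC and length correction. Whether the numbers pair the libraries is not known, so the block is given as a setting only.

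All 3 lovastatin libraries lay above the other 9 in 421 genes and below in 340. Without a filter these counts were 578 and 365. Leaving out 1 library gave 471 to 742 and 375 to 647, the highest without lovastatin replicate 3, and a filter or scaling otherwise left 377 to 427 and 323 to 341.

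Of 81 genes followed, 27 passed the test under every setting, among them HMGCS1, FDFT1, INSIG1, SCD and MICA. LBR changed sign with the GC and length correction (0.069, with and without the block, and 0.13 without CPT-11 replicate 3), as did CES2 (-0.070 and -0.11), and neither passed there; the cause was not tested. No setting changed the read depth, so what depth limits was not tested.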
